A study of Rattus norvegicus with 8 samples.

Results

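The barcodes described here are Xcl1-positive, Klrg1-negative barcodes with the natural killer (NK) receptor gene Ncr1 from rat liver immune cells. They were chosen by their own unique molecular identifier (UMI) counts. Each had at least 500 UMIs, less than 20% of them from mitochondrially encoded (Mt-) genes, at least 1 UMI each of Ncr1 and Xcl1, and no UMI of Klrg1, Clec4a3, Cd3d, Cd3e or Cd3g. The UMIs of the Ly49 receptor genes Klra22, Klra5, Ly49s6, Ly49i3 and Ly49s5 summed to at most 2. Of 32170 barcodes within the UMI and Mt- limits, 1443 (4.49%) met this rule. The fresh libraries held 832 of them among 17058 barcodes and the preserved libraries 611 among 15112.

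The libraries came from 4 male Han Wistar rats, whose age was not given in the sources used here. Animals NC1 and NC2 were negative controls on an amino acid-defined feed with enough choline (CSAA), and PC1 and PC2 positive controls on its choline-deficient counterpart (CDAA). Immune cells of each liver were enriched on a density gradient, without a sort for NK cells, and run on the droplet-based Chromium system as fresh cells and again after DMSO cryopreservation for 3 weeks. This gave 8 libraries, 1 fresh and 1 preserved per animal, so preservation and the day of processing cannot be told apart.

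NK cells kill target cells with perforin and granzymes released from granules. Ncr1 encodes the activating receptor NKp46, and Klrg1 an inhibitory receptor that is carried by mature NK cells and differentiated T cells. Xcl1 is a chemokine made by NK cells and CD8 T cells, and its receptor Xcr1 sits on cross-presenting dendritic cells. The liver also holds tissue-resident innate lymphoid cells of group 1 (ILC1), which share many of these genes with NK cells.

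The libraries held between 18338700 and 26471843 UMIs in all, and the chosen barcodes between 136166 (NC1 preserved) and 1582482 (PC2 preserved). Their median UMI count lay between 2057 and 4514 by library, against 3406 to 4571.5 in the other barcodes. Any pair of libraries shared 10 to 29 barcodes within the limits, and 2 barcode sequences met the rule in more than 1 library. Levels below are UMIs of a gene per 10000 UMIs of all genes, summed over the barcodes of a population in a library.

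The name NK held for most of the chosen barcodes, and not for all. Of 19 measured NK markers outside the rule, 14 were higher than in all other barcodes in each of the 8 libraries. Among them were Gzma, Prf1, Klrd1 and the transcription factor gene Tbx21. The 14 include Cd93, Kcnk1 and Klri1, which were given with the rule as markers and are not independent support for the name. The Gzma level was 45.9 (NC1), 56.7 (NC2), 26.99 (PC1) and 28.2 (PC2) in fresh libraries, and 11.8 to 25.2 in the other barcodes. Each animal was higher than the other barcodes of its own library. Of 12 measured ILC1 markers, 6 were also higher in each library, namely Itga1, Cxcr3, Tnfsf10, Rora, Gpr183 and Cd69. The summed level of the 12 was 4.92 to 6.93 by library against 3.46 to 7.24 in the other barcodes. This sum was lower than in the other barcodes in PC1 fresh (5.89 against 6.11), PC2 fresh (6.93 against 7.24) and PC1 preserved (5.68 against 6.47). It was higher in each of the 8 libraries than in 2 other sets of Ncr1-positive barcodes without Cd3 genes. Those with Klrg1 and at most 2 Ly49 UMIs had 2.45 to 4.69 by library, and those with more than 2 Ly49 UMIs 2.97 to 5.06. Barcodes with at least 3 C1q UMIs and no Ncr1 or Cd3 genes had 5.71 to 9.41. Eomes, a transcription factor gene that marks NK cells in mice, was at or below 0.018 in every library, and Il7r, a receptor gene of most innate lymphoid cells, at or below 0.020. At such levels neither gene could separate NK cells from ILC1. Of the defining markers of group 2 and group 3 innate lymphoid cells, 5 of 8 and 5 of 7 were at 0, while Gata3 of the group 2 list was higher than in the other barcodes in each library. On the T cell list, 3 of 13 measured markers outside the rule (Cd8a, Lat and Cd247) were higher in each library, and the summed level of the 13 was 10.3 to 19.5 by library against 7.55 to 14.5 in the other barcodes.

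Nonetheless 285 of the 1443 barcodes (19.8%) had less than 0.5% of their UMIs in 9 cytotoxic lymphocyte genes (Nkg7, Klrd1, Prf1, Gzma, Il2rb, Ctsw, Klre1, Gzmb and Klrk1, here called the NK panel, a set chosen after the data were seen). Their share was 9.2% in NC1 fresh, the lowest, and 28.6% in PC1 fresh, the highest. Among these 285 barcodes, 266 carried at least 2 UMIs of genes that mark other lineages, against 890 of the 1158 barcodes at the panel level. At least 3 UMIs of the B cell receptor component Cd79 were seen in 41 of the 285 and in 5 of the 1158. Results that rest on the chosen barcodes are therefore also given for the 1158 barcodes at the panel level where these changed a call. The panel level does not exclude other cells. By library it was reached by 2.33% to 25.5% of barcodes with at least 3 C1q UMIs and no Ncr1 or Cd3 genes. Of barcodes with at least 2 UMIs of Cd79b and no Ncr1 or Cd3 genes, 1.54% to 7.21% reached it.

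B cells, which should hold neither Ncr1 nor Xcl1, gave a background for both genes. Among barcodes with at least 2 UMIs of Cd79b and none of the Cd3 genes, 2.86% to 20.9% carried Ncr1 and 17.1% to 78.7% carried Xcl1, depending on the library. By library, 0% to 10.1% of them met the whole rule, 76 barcodes in all. Their median depth was 2391 to 3654 UMIs. The lowest Xcl1 counts that the rule admits therefore lie within this background. B cell barcodes without Ncr1 are set beside the chosen barcodes below.

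Values just inside and just outside each limit of the rule are given as a description. At 0 UMIs of Xcl1, with the other conditions met, 50.0% of 370 barcodes were at the NK panel level, and at 1 UMI 55.6% of 313. With 2 to 5 UMIs the share was 75.8%, and with 6 or more 97.8% of 580. Barcodes with 1 UMI of Klrg1, just outside the rule, were at the panel level in 88.7% of 345 cases, and those with 2 Ly49 UMIs (inside) and 3 (outside) in 89.5% and 96.5%. Gzmk, a tryptase-like granzyme gene, was lower at the upper end of Xcl1, with 7.47 per 10000 UMIs at 6 or more Xcl1 UMIs and 13.8 at 1. The libraries ranged from 3.97 to 9.80 and from 6.69 to 24.6, and these ranges overlap. It was highest outside the Klrg1 limit, with 26.3 at 1 Klrg1 UMI and 35.8 at 2 or more.

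**Figure D1:**
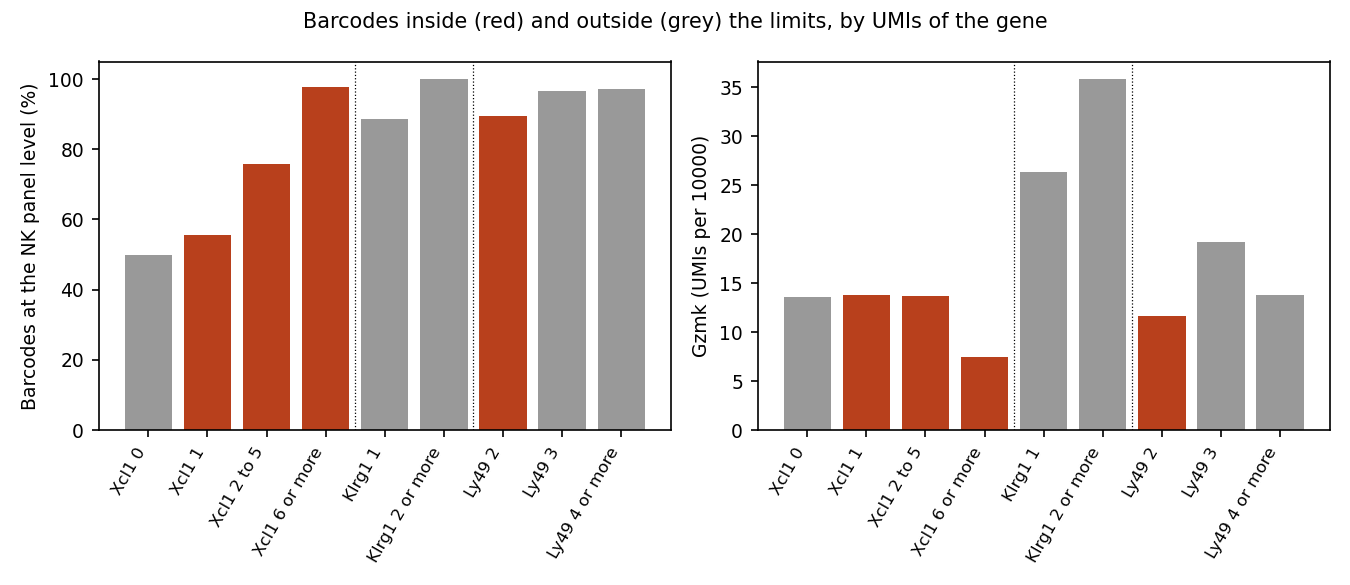
Share of barcodes at the NK panel level (percent) and Gzmk level (UMIs per 10000) by the number of Xcl1, Klrg1 and Ly49 UMIs, pooled over the 8 libraries. Red bars lie inside the rule and grey bars outside. The share rises from 55.6% at 1 Xcl1 UMI to 97.8% at 6 or more, and Gzmk is highest in the barcodes with Klrg1.

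As a share of all barcodes within the limits, the chosen barcodes made up 3.53% (NC1), 4.82% (NC2), 5.77% (PC1) and 5.54% (PC2) in fresh libraries. In the preserved libraries the shares were 1.18%, 1.60%, 5.23% and 7.34% in the same order, with exact (Clopper-Pearson) 95% intervals of 0.853% to 1.59% in NC1 and 6.57% to 8.17% in PC2. The shares were thus lower after preservation in NC1, NC2 and PC1 and higher in PC2. The mean change was -1.08 percentage points (SD 2.22, n = 4 animals), with a two-sided exact permutation p = 0.375 where 0.125 is the smallest that 4 animals allow. Averaged over both libraries of an animal, the share was 3.19 points higher in PC than in NC animals (exact permutation p = 0.333, the smallest possible with 2 against 2). After each barcode was thinned to 1000 UMIs, this difference was 0.977 points (exact permutation p = 0.667). Thinning also removes UMIs of the genes that the rule excludes, so other barcodes can enter. NC2 preserved had 64 chosen barcodes thinned and 55 unthinned. At the NK panel level the fresh shares were 3.21% (NC1), 4.29% (NC2), 4.12% (PC1) and 4.46% (PC2), so that the diets overlapped. The difference averaged over both libraries was then 2.12 points (exact permutation p = 0.333). The intervals cover counting error only.

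A different denominator gave a different order. Among barcodes with Ncr1 and without the Cd3 genes, 47.4% (NC1), 58.5% (NC2), 43.4% (PC1) and 31.1% (PC2) met the rule in fresh libraries, so that both NC animals lay above both PC animals. In preserved libraries the shares were 31.6%, 37.9%, 48.5% and 38.5%. They were lower than fresh in both NC animals and higher in both PC animals. The Klrg1-positive counterparts, which met every other condition on Ncr1, Cd3, Clec4a3 and Ly49 genes, numbered 47, 31, 65 and 208 in fresh and 35, 42, 63 and 247 in preserved libraries, with PC2 highest in both.

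**Figure D2:**
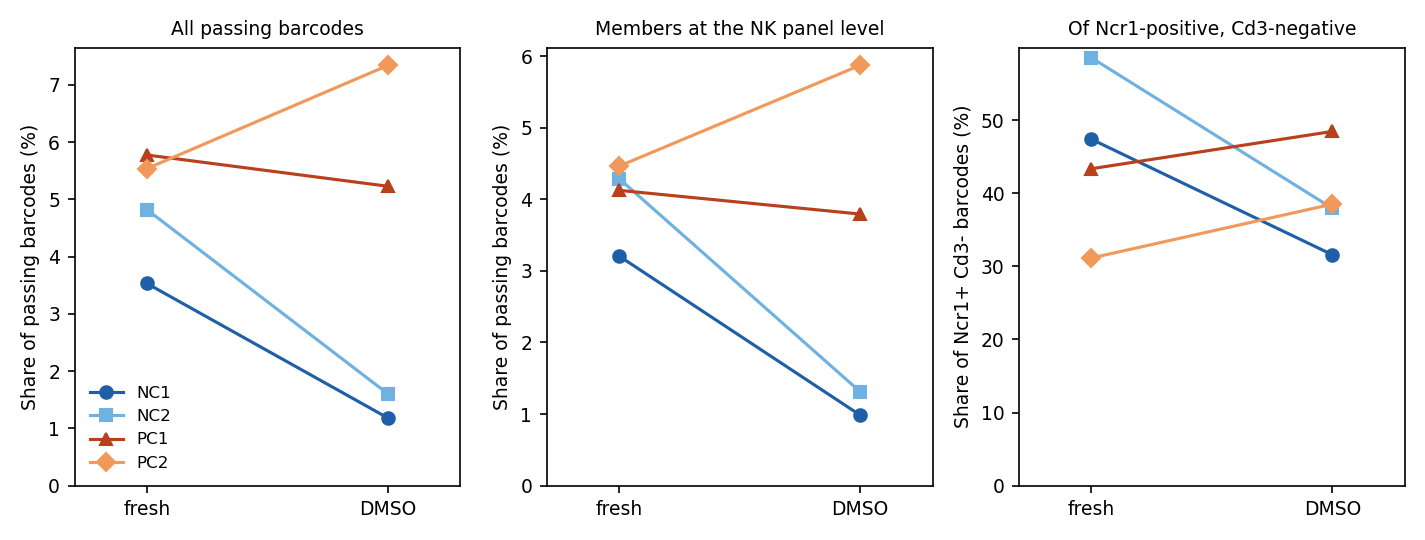
Shares per animal as connected points from fresh to DMSO preserved libraries (percent, linear axis): the chosen barcodes among all barcodes within the limits, the same at the NK panel level, and the chosen barcodes among Ncr1-positive Cd3-negative barcodes. Both NC animals lie lower after preservation in each panel, from 47.4% to 31.6% and from 58.5% to 37.9% in the last.

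The rule genes were left out of every test. The markers Cd93, Kcnk1 and Klri1 are only described in this paragraph, but they stayed in the tests of genes below. The mean Xcl1 level of the chosen barcodes was 16.2 ± 1.62 (SD, n = 4) in fresh and 17.1 ± 3.65 in preserved libraries, against 5.71 and 5.99 in Klrg1-positive NK barcodes and 5.39 and 4.83 in all other barcodes. Xcl1 in droplets with fewer than 100 UMIs, which hold no whole cell, was 2.28 to 6.98. Xcr1, the Xcl1 receptor gene, reached at most 0.073. Cd93, a transmembrane receptor gene, had a level of 1.21 (NC1), 1.19 (NC2), 0.534 (PC1) and 0.388 (PC2) in fresh libraries. In the Klrg1-positive barcodes of the same libraries it was 0.478, 0.435, 0.153 and 0.158, lower in each animal. Kcnk1, a potassium channel gene, was 1.24, 1.11, 0.875 and 0.713 in the chosen barcodes and 0.538, 0.653, 0.459 and 0.438 in the Klrg1-positive ones. Klri1, a lectin-like NK receptor gene, was 3.72 on average in the chosen and 3.17 in the Klrg1-positive barcodes, and the libraries overlapped. In all other barcodes it was 1.24. By share of fresh barcodes with at least 1 UMI, Cd93 was seen in 14.2% to 29.1% of the chosen barcodes by library, Kcnk1 in 22.7% to 30.7%, Klri1 in 47.2% to 69.0% and Gzma in 95.3% to 97.5%. In fresh B cell barcodes the shares were 4.62% to 9.01%, 0% to 7.21%, 14.3% to 25.0% and 81.4% to 90.1%, so that detection of Gzma was close to this background. With every barcode thinned to 1000 UMIs, Cd93 was seen in 2.65% to 14.1% of the chosen and 0% to 3.6036% of the B cell barcodes. Those ranges overlap. Kcnk1 was then seen in 9.73% to 13.8% and 0% to 1.80%. Fresh Ncr1-positive barcodes with more than 2 Ly49 UMIs overlapped the chosen ones without thinning in Kcnk1 (13.0% to 32.1%) and Klri1 (50.0% to 65.2%). For Cd93 they lay lower (9.17% to 13.0%). Thinned, Xcl1 was seen in 34.8% to 70.9% of them and 64.2% to 77.6% of the chosen barcodes, the only NK set in which Xcl1 was required.

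**Figure D3:**
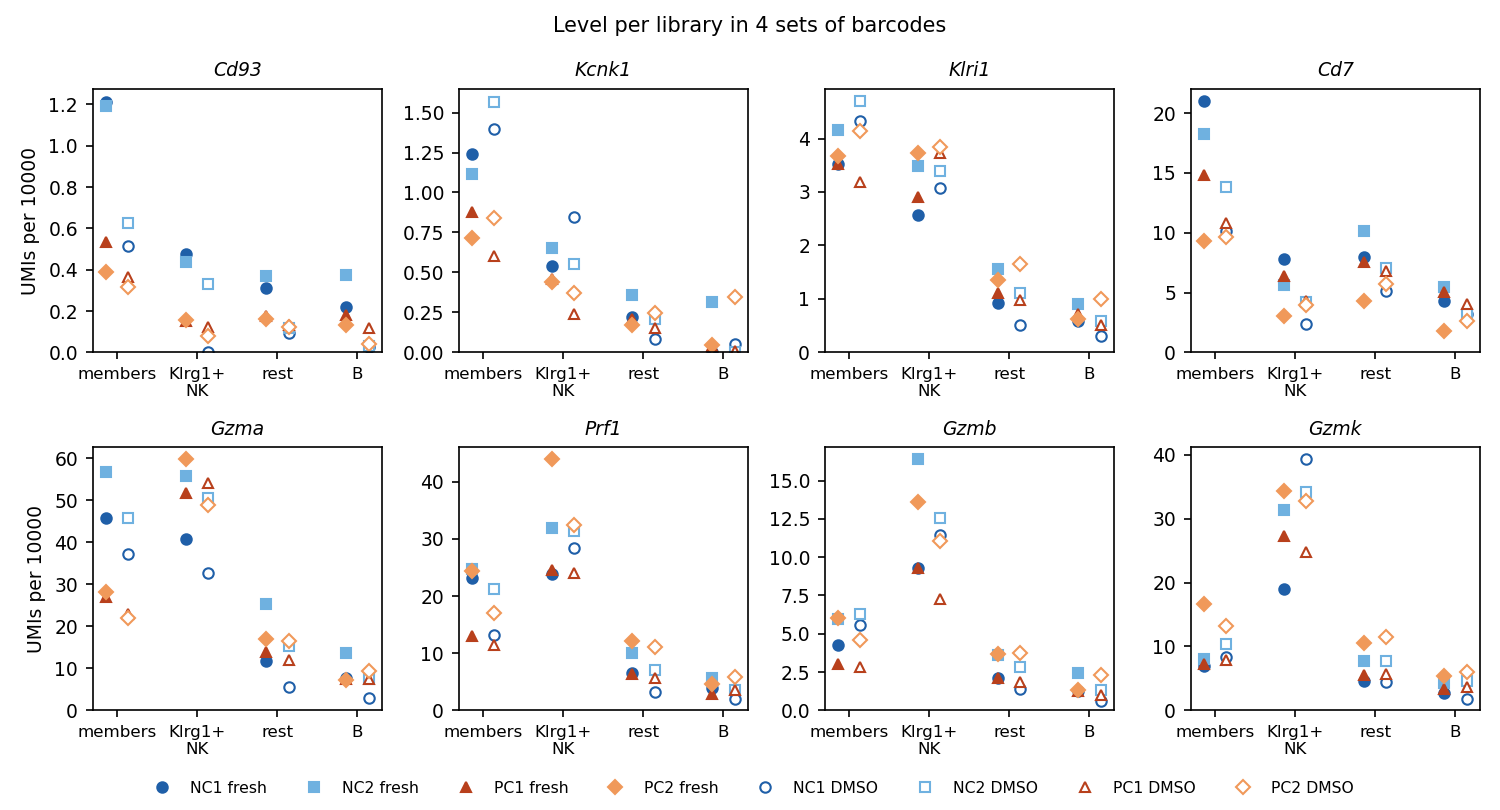
Levels of 8 genes (UMIs per 10000) in the chosen barcodes (members), Klrg1-positive NK barcodes, all other barcodes (rest) and B cell barcodes (B), 1 point per library, filled for fresh and open for DMSO preserved. Within each library Cd93, Kcnk1 and Cd7 are highest in the chosen barcodes, and Gzmk and Gzmb in the Klrg1-positive ones.

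The comparison with Klrg1-positive NK barcodes of the same animals asked which genes outside the rule separated the populations. In fresh libraries 47 of 4499 tested genes (1.04%) differed at an adjusted p under 0.05 and at least 2-fold, 32 higher (0.711%) and 15 lower (0.333%) in the chosen barcodes. In preserved libraries 26 of 2719 genes (0.956%) did, 11 higher (0.405%) and 15 lower (0.552%). All adjusted p-values are from edgeR's quasi-likelihood test with Benjamini-Hochberg adjustment over all genes tested. The median depth of the Klrg1-positive barcodes was 3477 to 5125 UMIs by library, above that of the chosen barcodes in each of the 8 libraries, and its part in these differences was not tested. Without the animal as a block, 1 and 12 genes were called. At the NK panel level, where the 9 panel genes were left out, 44 of 4168 genes (1.06%) were called in fresh libraries, 33 higher (0.792%) and 11 lower (0.264%), and 20 of 2395 (0.835%) in preserved ones, 13 higher (0.543%) and 7 lower (0.292%). Without NC1 the preserved comparison gave 49 genes and without NC2 58.

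Granule genes split in both directions. Gzmk was 6.94 (NC1), 7.97 (NC2), 7.27 (PC1) and 16.6 (PC2) in the chosen barcodes of fresh libraries, and 19.1, 31.4, 27.2 and 34.3 in the Klrg1-positive ones. The populations did not overlap, and the log2 difference was -1.65 (SE 0.10, adjusted p = 7.7e-13). After preservation it was -1.70 (SE 0.09, adjusted p = 1.79e-12). In all other barcodes of the fresh libraries Gzmk was 4.52, 7.76, 5.59 and 10.6, closer to the chosen barcodes than to the Klrg1-positive ones. Gzmb, the granzyme that cleaves caspases, was 4.30, 5.98, 3.05 and 6.04 against 9.26, 16.4, 9.26 and 13.6 in fresh libraries, a log2 difference of -1.41 (SE 0.09, adjusted p = 1.04e-12), and -1.25 in preserved ones. Gzmbl3, a granzyme B-like gene whose reads may be shared with its paralogs, was lower by a log2 difference of -3.26 (SE 0.28). Ctsw, a cathepsin gene of cytotoxic lymphocytes, was higher (log2 difference 1.33 fresh and 1.15 preserved), and without PC2 the fresh call was lost. Of the 13 tested cytotoxic granule and death ligand genes, 2 were higher and 3 lower in fresh libraries with a median log2 difference of -0.56, where all genes had a median of -0.002. In preserved libraries 2 were higher and 2 lower of 12.

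Calls among surface and receptor genes were few in number. In fresh libraries 1 of 19 tested NK receptors and adaptors, 2 of 14 cytokine and chemokine receptors and 2 of 15 adhesion and surface genes were higher, with median log2 differences of -0.10, 0.07 and 0.30, and in preserved libraries 1 of 17, 0 of 9 and 2 of 13 were. None of these list genes was called lower. Over all tested genes 32 of 4499 (0.711%) were higher in fresh and 11 of 2719 (0.405%) in preserved libraries, smaller shares than on each list with a call. The lists were chosen with earlier results of these data known, so their larger shares are not independent evidence. Cd7, an immunoglobulin family receptor of T and NK cells, was 21.0, 18.2, 14.8 and 9.34 in fresh libraries against 7.83, 5.66, 6.39 and 3.04 in the Klrg1-positive barcodes, and the log2 difference of 1.40 (SE 0.09, adjusted p = 7.7e-13) was 1.42 after preservation. Art2b, an ADP-ribosyltransferase gene of rat lymphocytes, differed by 1.58 (SE 0.18) and 2.15 (SE 0.24). Cd226, the activating receptor DNAM-1, differed by 1.60 (SE 0.25) and 1.14 (SE 0.25) and was the only called gene among 19 NK receptors and adaptors tested in fresh libraries and 17 in preserved ones. Cxcr3, a receptor for interferon-induced chemokines, was 1.14, 1.22, 1.25 and 1.31 against 0.897, 0.580, 0.642 and 0.394, a log2 difference of 1.17 (SE 0.19) that was no longer called without PC2. Il2ra, the interleukin-2 receptor alpha chain, and Tox, a transcription factor gene of lymphoid development, were higher by 1.69 (SE 0.43) and 1.43 (SE 0.39) in fresh libraries. Both rested on low counts, and without PC1 neither was called. Lag3, an inhibitory receptor gene, was lower by a log2 difference of -1.57 (SE 0.18) in fresh libraries.

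Other genes at the ends of the ranking were less familiar in NK cells. Fam101a, Podnl1, Tspyl4, the lysophosphatidic acid receptor Lpar1, Asb2 and the ectonucleotidase Entpd1 were higher by log2 differences of 1.65 to 2.24 in fresh libraries. Mcpt1l4, a mast cell protease-like gene with close paralogs, was higher by 1.58 and 1.74, and Mcpt8l3 by 1.45 in preserved libraries, where Tnfsf10, the death ligand TRAIL, was higher by 1.66 (SE 0.33) and the adaptor gene Skap1 by 1.43. Focad, Spint1 and Nrgn were lower in both kinds of library, by log2 differences of -1.69, -1.60 and -1.39 in fresh ones. Cenpa and Ube2c, genes of mitosis, were lower by -1.45 and -1.13 in preserved libraries, as were Cd24, Cpne4 and C1qtnf6. C1qtnf6 was not called at the NK panel level, with a log2 difference of -0.88, and Cenpa and Cpne4 did not pass the filter on low counts. The neutrophil genes S100a8 and S100a9 were among the 32 higher genes in fresh libraries, and neither was called at the NK panel level. Mmp9, another neutrophil marker, was higher both over all chosen barcodes and at the panel level. Their part in the other differences was not tested.

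DMSO cryopreservation was compared with fresh cells of the same animals. In the chosen barcodes 40 of 5707 genes (0.701%) changed, 25 rose (0.438%) and 15 fell (0.263%). Immediate early genes, which are transcribed within minutes of a stimulus, stood out among the genes that rose: of 27 listed genes 18 were tested, 10 rose and none fell, with a median log2 change of 1.06 where all genes had -0.003. The list includes Fos, Fosb and Jun, which the study picked from these libraries, so it is not independent evidence of direction. At the NK panel level 31 of 4926 genes (0.629%) changed, 24 rose (0.487%) and 7 fell (0.142%), and without PC1 25 genes did in all. Without the animal as a block 11 genes changed.

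The AP-1 genes Fos, Fosb and Jun rose most within the list. Fos was 0.486 (NC1), 0.188 (NC2), 0.157 (PC1) and 0.153 (PC2) in fresh and 9.40, 14.5, 7.44 and 10.2 in preserved libraries, a log2 change of 5.61 (SE 0.18, adjusted p = 5.28e-19). Fosb was 0.219, 0.0471, 0.00921 and 0.0271 before and 5.88, 13.4, 4.84 and 4.10 after, a log2 change of 6.98 (SE 0.25, adjusted p = 3.69e-18). Jun went from 0.534, 0.581, 0.424 and 0.316 to 5.95, 6.17, 2.90 and 4.73, with a log2 change of 3.41 (SE 0.15, adjusted p = 4.15e-16). For each of these genes every preserved library lay above every fresh one, with PC1 lowest among the preserved libraries for Fos and Jun. Dusp1, a phosphatase gene that switches off MAP kinases, rose by a log2 change of 2.47 (SE 0.18) and Nr4a2, an orphan nuclear receptor gene, by 1.72 (SE 0.39), the latter not called without NC2 or without PC1. Junb, Ppp1r15a, Zfp36, Klf6 and Btg2 rose by 1.54, 1.51, 1.23, 1.11 and 1.01. Egr1 had a log2 change of -0.83 with an adjusted p of 0.232, and Jund of -0.02. Neither passed the test.

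**Figure D4:**
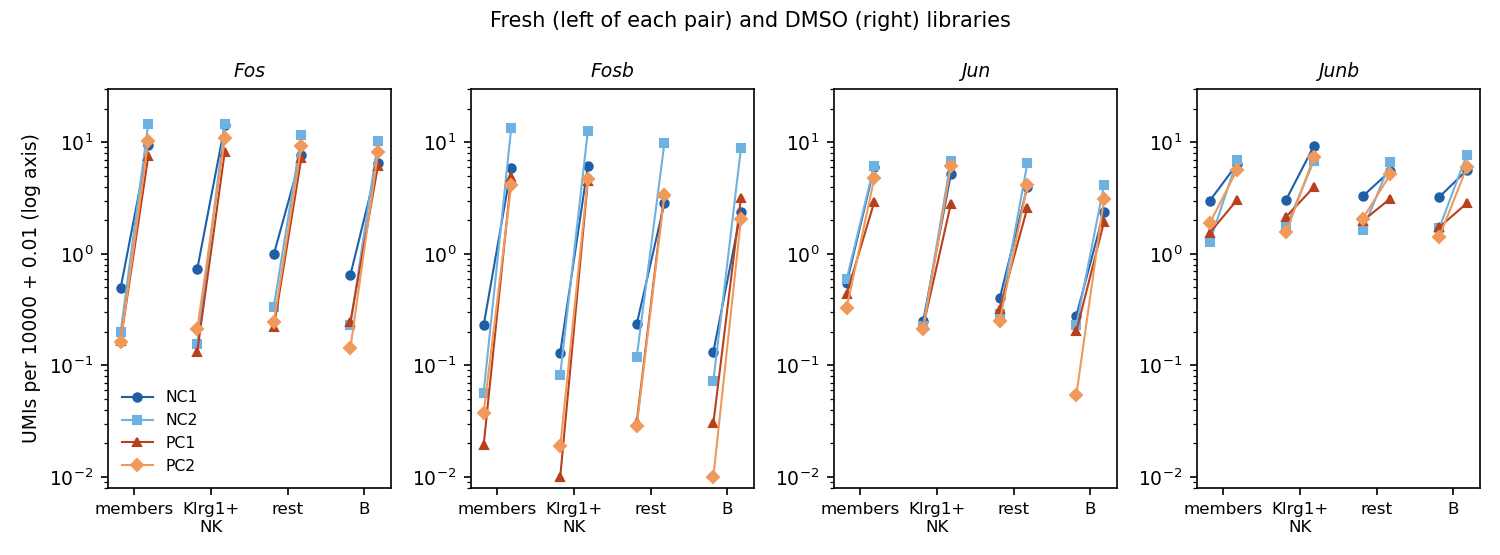
Levels of Fos, Fosb, Jun and Junb (UMIs per 10000 with 0.01 added, log axis) in fresh and DMSO preserved libraries, 1 line per animal, in the chosen barcodes (members), Klrg1-positive NK barcodes, all other barcodes (rest) and B cell barcodes (B). Fos in the chosen barcodes rises from between 0.153 and 0.486 to between 7.44 and 14.5, and it rises in the other sets too. Junb was added after its values were seen.

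Outside this list, few NK genes changed. Ccl3, an inflammatory chemokine gene, was 4.52, 2.62, 3.57 and 7.80 in fresh and 14.8, 21.7, 9.33 and 15.8 in preserved libraries, a log2 change of 1.75 (SE 0.18, adjusted p = 1.04e-07), and was the only gene called among 8 tested chemokines and cytokines. Rgs1 and Rgs2, regulators of G protein signalling, rose by 1.73 (SE 0.15) and 2.03 (SE 0.35), Chrne by 1.79 (SE 0.25) and Sh3bp4 by 1.75 (SE 0.46), the last not called without NC2. In the cell cycle list 2 of 13 tested genes rose, with a median log2 change of 0.83: Cdk1, the kinase that drives mitosis, by 1.47 (SE 0.31) and Cdkn1a, an inhibitor of such kinases, by 1.38 (SE 0.38). Cdkn1a was not called without NC1 or without NC2, and Rgs2, Sh3bp4 and Cdkn1a did not pass the filter on low counts at the NK panel level. None of 12 cytotoxic granule and death ligand genes, 21 NK receptors and adaptors, 18 cytokine and chemokine receptors, 15 transcription factors, 12 NF-kB genes, 10 heat shock and ubiquitin genes, 15 interferon-stimulated genes and 12 energy metabolism genes passed the test, and their median log2 changes lay between -0.32 and 0.40. Across all genes, 757 had an unadjusted p under 0.05.

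Among the genes that fell, Adgre5, the adhesion receptor gene CD97, went from 0.413, 0.659, 0.553 and 0.569 to 0, 0.262, 0.282 and 0.240, a log2 change of -1.19 (SE 0.23). Wnt4 and Tomm6, a subunit of the mitochondrial import channel, fell by 1.35 and 1.13 on the log2 scale, and neither was called without PC1 or without PC2. Cd300a, an inhibitory receptor gene, fell by 1.42 and S100a9 and S100a8 by 1.38 and 1.15. None of the 3 was called at the NK panel level or without PC1. The 9 neutrophil markers summed to 15.9 in PC1 fresh and to 1.05 to 5.51 in the other 7 libraries, and at the panel level to 1.14 to 3.26. Of these markers Lcn2 was at 0 at the panel level. Of 6 tested macrophage markers Clec4f, a Kupffer cell lectin gene, fell, and it was not called at the panel level. The part of neutrophil and macrophage transcripts in these falls was not tested.

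The rise of the AP-1 genes was also seen in the populations beside the chosen barcodes. Fos reached 14.2, 14.5, 8.24 and 10.8 in preserved Klrg1-positive NK barcodes, 7.74, 11.5, 7.23 and 9.30 in all other barcodes, and 6.55, 10.2, 6.14 and 8.12 in B cell barcodes. Its fresh levels in these populations were at most 0.979. Ccl3 also rose in each of these populations in every animal. In B cell barcodes Ccl3 went from 3.61 (NC1), 1.85 (NC2), 2.54 (PC1) and 2.34 (PC2) to 6.47, 11.6, 6.70 and 11.4. In all other barcodes it went from 2.80, 1.83, 3.37 and 2.69 to 6.85, 10.3, 8.21 and 12.4. A test of whether the change with preservation differed from that of all other barcodes called 0 of 10619 genes (0%) by edgeR's quasi-likelihood test, with 355 at an unadjusted p under 0.05 and 1 call by DESeq2. Against Klrg1-positive NK barcodes it called 0 of 4202 genes, with 124 at an unadjusted p under 0.05 and 0 by DESeq2. The change of Fos differed from that of the Klrg1-positive barcodes by 0.06 (SE 0.39) on the log2 scale and that of Jun by -1.25 (SE 0.31, adjusted p = 0.618). Without NC1 these tests called 1 and 3 genes, and without PC2 the first called 2.

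The diets were compared within fresh libraries, 2 PC against 2 NC animals. In the chosen barcodes 114 of 6181 genes (1.84%) differed, 48 higher (0.777%) and 66 lower (1.07%) in PC animals. Among the higher genes, those with the largest differences included several known from lipid-laden macrophages. Lower genes included the surface marker Cd93, 2 early genes and 2 interferon-stimulated genes. At the NK panel level 130 of 5412 genes (2.4%) differed, 43 higher (0.795%) and 87 lower (1.61%). The count was 225 without NC1, 231 without NC2 and 202 without PC1. No gene was called when genes with low counts stayed in the test, where 1262 had an unadjusted p under 0.05, or after barcodes with markers of other lineages were removed, where 130 of 1361 genes did. DESeq2 called 48 genes.

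Apoe, an apolipoprotein gene, was 0.146 (NC1), 0.0314 (NC2), 1.84 (PC1) and 3.23 (PC2), a log2 difference of 4.99 (SE 0.46, adjusted p = 0.000326). Fabp4, a fatty acid binding protein gene, was 0.0486, 0.0471, 1.81 and 3.96 (log2 difference 5.85, SE 0.54), and Gpnmb, a glycoprotein gene of lipid-laden macrophages, 0.0728, 0.0785, 0.958 and 1.66 (4.05, SE 0.43). In all 3 genes both PC animals lay above both NC animals, with PC2 highest. Spp1, the matrix protein osteopontin, had 1 UMI in NC and 280 in PC animals, a ratio of levels of 133.9 with a counting interval from 23.8 to 5308. Lpl, lipoprotein lipase, had 3 and 147 UMIs and a ratio of 23.4 (7.86 to 115). Mmp12, a macrophage elastase gene, was at 0 in NC animals and at least 12.9-fold higher in PC animals by the limit of 3 UMIs over the group, and without PC2 it was not called. Slc2a6 and Cpne7 had 2 UMIs each in NC animals, with ratios of 14.1 (3.74 to 119) and 11 (2.88 to 93.6). Mcemp1 and S100a9 were higher by log2 differences of 3.28 and 3.14, and neither was called at the NK panel level.

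Several of these genes were higher in PC animals outside the chosen barcodes too. Apoe was 0.171 and 0.0313 in NC and 2.25 and 2.34 in PC animals in B cell barcodes, and 0.328, 0.128, 5.06 and 6.72 in all other barcodes. Fabp4 in B cell barcodes was 0.0733, 0, 2.70 and 3.09. Cpne7 was not higher in all other barcodes, with 0.0578, 0.0580, 0.0561 and 0.0575. Of 10 macrophage markers 6 were tested in the chosen barcodes and 3 were higher (C1qb, C1qc and Cd5l), and none of the 10 was at 0 in every library. Cd14 and Csf1r were higher among 7 tested monocyte markers, and of 3 tested neutrophil markers S100a8 and S100a9 were higher and Mmp9 lower. The summed level of the 10 macrophage markers was 3.25 and 3.97 in NC and 7.02 and 10.0 in PC animals, against 2.78 and 3.38 in NC and 8.08 and 9.45 in PC animals in B cell barcodes. At the NK panel level the sums were 3.32, 3.93, 6.77 and 5.71, and Apoe, Fabp4, Gpnmb, Spp1 and Lpl were still called. The 9 neutrophil markers summed to 2.94, 2.09, 15.9 and 5.51 over all chosen barcodes. The part of macrophage, monocyte and neutrophil transcripts in the diet differences was not tested.

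**Figure D5:**
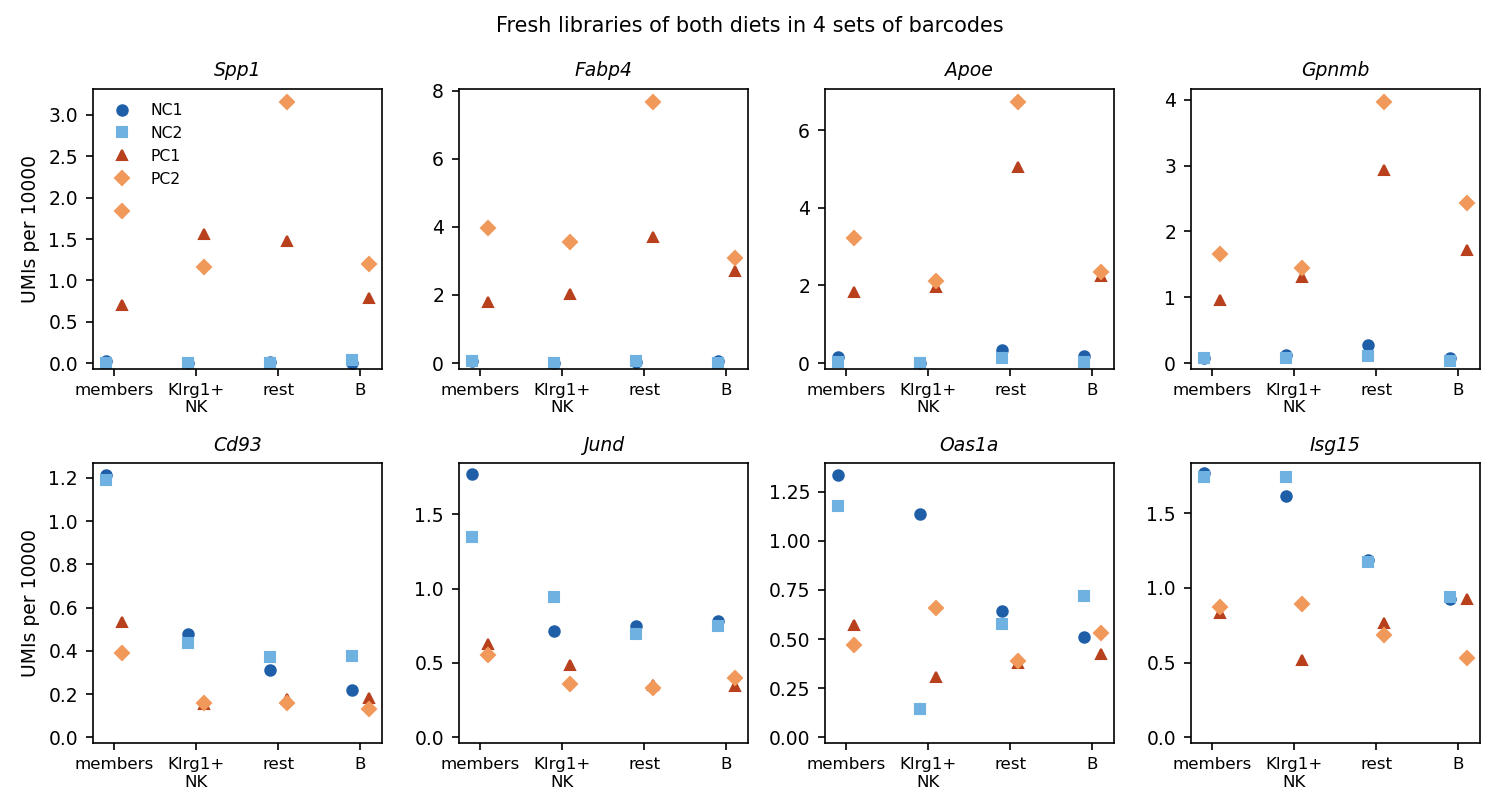
Levels of 8 genes (UMIs per 10000) in fresh libraries of NC and PC animals, 1 point per animal, in the chosen barcodes (members), Klrg1-positive NK barcodes, all other barcodes (rest) and B cell barcodes (B). Spp1, Fabp4, Apoe and Gpnmb are higher in PC animals in each population, and Cd93, Jund, Oas1a and Isg15 are lower in PC animals in the chosen barcodes.

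Some of the genes that were lower in PC animals had their highest level in the chosen barcodes. Cd93 was 1.21 and 1.19 in NC and 0.534 and 0.388 in PC animals, a log2 difference of -1.40 (SE 0.22, adjusted p = 0.0103), and Jund, an AP-1 gene with steady expression, 1.77 and 1.35 against 0.626 and 0.551 (-1.41, SE 0.20, adjusted p = 0.00643). Oas1a, an antiviral enzyme gene, was 1.34 and 1.18 against 0.571 and 0.469 (-1.28, SE 0.21), and Isg15, a ubiquitin-like modifier gene, 1.77 and 1.74 against 0.82903 and 0.875 (-1.06, SE 0.18). Oas1a and Isg15 were the 2 called of 14 tested interferon-stimulated genes, with a median log2 difference of -0.37 where all genes had -0.01. Cd93, Jund, Oas1a and Isg15 were still called with each animal left out in turn and at the NK panel level. Cd93 and Jund were also lower in both PC animals in B cell barcodes, with Jund at 0.781 and 0.752 against 0.345 and 0.397. Ier5, another early gene, was lower by a log2 difference of -1.32 (SE 0.31) and not called without NC1.

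Signalling genes differed in both directions. Ifngr1, the interferon gamma receptor chain, was 1.26 and 1.58 in NC and 2.75 and 3.86 in PC animals (log2 difference 1.17, SE 0.22), the only gene called among 18 cytokine and chemokine receptors, and was not called without PC2. Nfkbia, the inhibitor of NF-kB, was higher by 1.003 (SE 0.16) and not called at the NK panel level, without NC2 or without PC1. Tgfb1, an immunosuppressive cytokine, was 0.850, 0.267, 0.0461 and 0.0542 (log2 difference -3.34, SE 0.57), and 0.733, 0.251, 0.0811 and 0.0442 in B cell barcodes. Kcns1, a potassium channel subunit gene, was 0.437, 0.204, 0.0276 and 0.0181 (-3.66, SE 0.58). Cdan1 was at 0 in PC animals and at least 11.8-fold lower by the same limit, and Cxcl1, a neutrophil chemokine, had 21 UMIs in NC and 2 in PC animals (ratio 0.0456, 0.00518 to 0.186). Gzmbl3, Dsp, Aggf1, Dock2, Fbxo31 and Zfhx3 were lower by log2 differences between -2.77 and -2.44, and each lost its call without at least 1 animal. Aggf1 and Zfhx3 were not called at the NK panel level, where Gzmbl3, Dock2, Mmp12 and Slc2a6 did not pass the filter on low counts. Among 21 NK receptors and adaptors, 15 transcription factors and 12 cell cycle genes no gene was called.

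In preserved libraries 10 of 4925 genes (0.203%) differed between the diets, 7 higher (0.142%) and 3 lower (0.0609%) in PC animals. Fabp4 was at 0 in NC animals and 2.84 (PC1) and 2.69 (PC2), at least 29.9-fold higher. Gpnmb and Apoe had 2 and 3 UMIs in NC animals, with ratios of 24.1 (6.62 to 200) and 19.8 (6.73 to 96.3). Cd63 and Lgals3, lysosomal and galectin genes of macrophages, were higher by log2 differences of 3.39 and 2.85, Tmem176b by 2.37 and Slc25a4, the mitochondrial ADP/ATP carrier, by 1.53. The higher genes were also higher in PC animals in B cell barcodes, where Fabp4 was 0 and 0 against 3.77 and 2.92, Cd63 0.228 and 0.163 against 3.05 and 2.85, and Slc25a4 1.92 and 1.85 against 4.51 and 4.23. Mcpt8l3 was 3.38 and 6.22 in NC and 1.31 and 0.998 in PC animals (log2 difference -2.15, SE 0.29), and Mcpt1l4 and Rdm1 were lower by log2 differences of -1.96 and -1.80. The last 2 were not called without NC2, and Tmem176b and Rdm1 were not called at the NK panel level. Mcpt8l3 was 0.101 and 0.391 against 0.305 and 0.0770 in B cell barcodes, where the diets overlapped. Mcpt1l4 overlapped there too, at 0.101 and 1.01 against 0.652 and 0.308. Rdm1 was lower in both PC animals in B cell barcodes as well, at 0.658 and 0.781 against 0.431 and 0.308. The NC libraries held 42 and 55 chosen barcodes, and the count of genes was 13 of 3966 (0.328%) at the NK panel level, 8 higher (0.202%) and 5 lower (0.126%). It was 66 without NC1, 19 without NC2, 67 without PC1 and 56 without PC2.

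The change with preservation differed between the diets for 4 of 6550 genes (0.0611%), 1 upwards in PC relative to NC animals (0.0153%) and 3 downwards (0.0458%). By an unadjusted p under 0.05 there were 395. Ccl1, a chemokine that attracts CCR8-bearing cells, was 4.64 (NC1), 0.659 (NC2), 0.728 (PC1) and 2.11 (PC2) in fresh libraries and 0.0734, 0.0523, 1.08 and 2.93 in preserved ones. It was lower after preservation in both NC animals, with 1 UMI left in each, and higher in both PC animals. The difference between the changes was 5.69 on the log2 scale (SE 0.54, adjusted p = 3.82e-22), and Ccl1 was the only gene of 5779 called at the NK panel level (0.0173%). In B cell barcodes of NC1 it was 0.220 fresh and 1.26 preserved. Ccl3, Eef1a1 and Ppia had differences of -1.23, -1.17 and -1.03, and each lost its call in at least 2 of the 4 fits that left out 1 animal. Without NC2 29 genes were called and without PC2 1.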

How the data were processed

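The authors deposited UMI counts per gene and barcode, made from 10x Chromium 3' version 2 libraries with bcl2fastq 2.17.1.14, Cell Ranger 2.1.1 and STAR, as the submitters' processing notes name them. Barcodes were chosen by the limits given above, and no doublet caller was run. Animals, not cells, were the replicates. UMIs of the chosen barcodes were summed per library and tested with edgeR 4.0.16 (TMM scaling, filterByExpr, quasi-likelihood test, Benjamini-Hochberg adjusted p under 0.05 and at least 2-fold, no fold minimum for differences between changes). The 12 genes of the rule and Mt- genes stayed in library sizes and out of the tests. Fits across preservation or population had the animal as a block, since both libraries came from 1 animal. Diet fits had no covariate. The deviations of same-animal libraries from their group means correlated at 0.0453 (NC) and 0.310 (PC). Shares were compared by exact permutation tests. The fits were tested on simulated data. Alternatives included DESeq2 1.42.0, other filters and leaving out each animal. Genes were named by rule: up to 10 called genes per direction and comparison, ranked by fold, if all animals moved alike, called genes of the pathway lists (at most 4 per list), the genes of the rule and its markers, Fos, Fosb, Jun and Xcr1. Other genes, namely NK panel and cell type markers, Junb, Ppp1r15a, Zfp36, Klf6, Btg2, Egr1 and Jund under preservation, were named after their values were seen. The members and gene lists were chosen with earlier results of these data known.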

Additional observations from a re-analysis of the deposited data

Results flagged for a closer look

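Gaps within 75 sets of 4 animals were checked, for gene differences and for changes in the share of the chosen barcodes. In 5 sets, all of genes, 1 animal lay far from the others, where chance gives about 1 in 20. The gap over the range was 0.851 for the change of Fosb with preservation (NC2 highest), 0.917 for Jun (PC1 lowest) and 0.958 for S100a9, which fell most in PC1. It was 0.845 for Gzmbl3 against Klrg1-positive NK barcodes in fresh libraries (NC2) and 0.849 for Kcnk1 in preserved ones (NC2).

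The change with preservation differed between the diets, by an interaction term, for Ccl1 (5.69 on the log2 scale), Ccl3 (-1.23), Eef1a1 (-1.17) and Ppia (-1.03). The share of Ncr1-positive Cd3-negative barcodes that met the rule changed by -15.8 (NC1) and -20.6 (NC2) percentage points with preservation, and by 5.10 (PC1) and 7.37 (PC2). This split had an exact permutation p = 0.333, the smallest possible with 2 against 2 animals.

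Droplets with fewer than 100 UMIs, which enter no comparison, held Xcl1 at 4.11 (NC1), 4.85 (NC2), 5.79 (PC1) and 4.08 (PC2) UMIs per 10000 in fresh libraries. In preserved libraries they held 2.28, 5.37, 5.65 and 6.98.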

How the results depend on the processing

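Of 1721 values of named genes under an alternative, 1433 kept direction and side of the threshold, 259 kept only the direction, 11 newly passed and 18 turned. Counts of genes at main settings were 40 (preservation), 114 and 10 (diet, fresh and preserved), 4 (diet by preservation), 47 and 26 (against Klrg1-positive NK barcodes, fresh and preserved), and 0 for both differences in response. Bonferroni adjustment gave 16 (preservation), 10 and 5 (diet, fresh and preserved), 4 (diet by preservation), 30 and 22 (populations). DESeq2 gave 16, 48, 19, 1, 29 and 24 in that order, and 1 and 0 for the responses. With every gene of at least 1 count kept, the counts in that order were 63, 0, 110, 5, 78 and 68, and 16 and 6 for the responses. With at least 10 counts required in every library they were 15 (preservation), 19 (diet preserved), 0 (diet by preservation), 10 and 9 (populations). Without barcodes with other-lineage markers they were 7, 0, 12, 0, 10 and 6 in that order, with far fewer genes tested. Without a 2-fold minimum they were 151 (preservation), 158 and 10 (diet), 183 and 220 (populations). At the NK panel level, added after the data were seen, diet by preservation gave 1. Leaving out 1 animal gave 25 to 51, 126 to 231, 19 to 67, 1 to 29, 37 to 57, 21 to 58, 0 to 2 and 0 to 3. No replicate block gave 11, 1 and 12 genes for preservation and both populations, and the paired design rests on the shared animal. The share of chosen barcodes kept its direction for preservation (-2.04 to -0.364 points without 1 animal) and diet (2.72 to 3.65), except that with Ncr1-positive Cd3-negative barcodes as the denominator the diet difference was -3.49 points.

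The values that turned were of genes that did not pass the test. For diet in fresh libraries these were Kcnk1 at 0.33 without other-lineage barcodes, and Klri1 at 0.0187 at the panel level and between -0.26 and 0.0758 without 1 animal. For diet by preservation Jun was 0.76 without other-lineage barcodes, and without 1 animal Fos lay between -0.42 and 1.54, Fosb between -0.25 and 3.09 and Jun between -0.61 and 0.42. For the preserved populations Fosb was 0.0170 at the panel level, and without 1 animal Fosb lay between -0.12 and 0.0481 and Klri1 between -0.0184 and 0.24, while Jun reached 0.00585. For preservation Kcnk1 reached -0.0324. For the response against Klrg1-positive barcodes Klri1 was 0.0485 at the panel level and 0.32 without other-lineage barcodes, and between -0.13 and 0.14 without 1 animal, while Fos was -1.23 without other-lineage barcodes and -0.0253 without NC2. For the response against all other barcodes Fos was -0.430 without other-lineage barcodes. The causes were not tested. Depth limits the preserved NC libraries most, with 136166 and 191196 UMIs over the chosen barcodes.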

Other observations

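Ccl5, a chemokine gene of cytotoxic lymphocytes, was at 262 (NC1), 286 (NC2), 176 (PC1) and 194 (PC2) UMIs per 10000 in the chosen barcodes of fresh libraries. In Klrg1-positive NK barcodes it was 301, 347, 292 and 313, higher in each animal, and in B cell barcodes 40.5 to 73.0. Ccl5 was chosen after its values were seen.

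Of the 1158 chosen barcodes at the NK panel level, 247 carried Cd93, 378 Kcnk1 and 824 Klri1.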
